A study of Mus musculus with 3 samples.

Results

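Alveolar type 1 (AT1) cells of the P14 mouse lung were chosen by their own transcripts from scRNA-Seq of whole lungs. The 3 lungs came from wild-type C57BL/6 pups that breathed room air from day 1 to day 14 of life. They are numbered mice 2, 3, and 4 and form 1 condition without a manipulated allele, with 1 library per mouse, so that the replicate was the mouse. In the study the libraries served to find the lung cells that express *Dll4*. Cells entered with 200 or more detected genes and no more than 20% of their unique molecular identifiers (UMIs, tags that mark each captured transcript once) from mitochondrial genes. The AT1 gate asked for at least 5 UMIs of *Aqp5*, *Rtkn2*, and *Akap5* together, less than 2% of its UMIs from *Sftpc*, no UMI of *Ptprc* or *Cdh5*, and at most 5 UMIs of *Col1a1* and *Col1a2* together. Of 9644 cells in the matrices 7642 passed the filter, and 116 of these met the rule. The libraries held 3034, 3135, and 3475 cells with 23744510, 22476491, and 25192427 UMIs in mice 2, 3, and 4.

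AT1 cells are the thin, flat cells that cover most of the gas exchange surface. Their bodies share a fused basement membrane with the capillaries, and they are a known epithelial source of VEGFA for the neighboring ECs. Alveolar type 2 (AT2) cells sit beside them in the same epithelium, make and secrete surfactant, and can give rise to AT1 cells. Cells with the same filter, at least 2% of UMIs from *Sftpc*, and the same limits on *Ptprc*, *Cdh5*, and the collagens served as AT2 cells, 1068 in all (383, 253, and 432 in mice 2, 3, and 4). They carried no limit on *Aqp5*, *Rtkn2*, and *Akap5*, and 351 of them had at least 5 UMIs of these genes together. AT2 levels of AT1 markers include these cells. Per AT2 cell *Hopx*, for example, had a median of 0 and a highest count of 143 UMIs.

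The rule did not give AT1 cells alone. Among the 116 cells, 18 (7, 2, and 9 per mouse) were airway-secretory-like and went against the AT1 label. In these cells the club cell genes *Scgb1a1*, *Scgb3a2*, and *Cyp2f2* made up at least 1.43% of the UMIs, against at most 0.337% in the other 98 cells, so that no cell lay between these values. *Scgb1a1*, the main secreted protein of club cells, took a median of 35.6% of their UMIs, with a range from 0.327% to 54.6%. They were also deep cells, with a median of 61382 UMIs against 12965 in the other 98, and met the rule through *Aqp5*, which had 5 to 25 UMIs per cell. *Rtkn2* was found in 5 and *Akap5* in 4 of the 18. *Hopx* stood at 124, 28.6, and 73.3 CPM (counts per 1e6 UMIs, from sums per mouse) in these cells, in mice 2, 3, and 4, and *Ager* at 429, 0, and 214 CPM. In mouse 2, 2 of the 7 cells, with at least 1% of their UMIs from *Sftpc*, held 54 of the 91 *Hopx* and 237 of the 314 *Ager* UMIs, and without them the levels of that mouse were 84.6 and 176 CPM. Airway values below include these 2 cells. The 18 cells were 15.5% of the cells but held 54.3% of the UMIs of the 116, 60.7%, 40.8%, and 50.1% in mice 2, 3, and 4. Sums over all 116 cells are therefore in large part sums over airway cells, and values below are given for the remaining 98 AT1-like cells, with the counts of each gene list, and some genes, also from the fit to all 116. This split was chosen after the data had been seen.

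**Figure D1:**
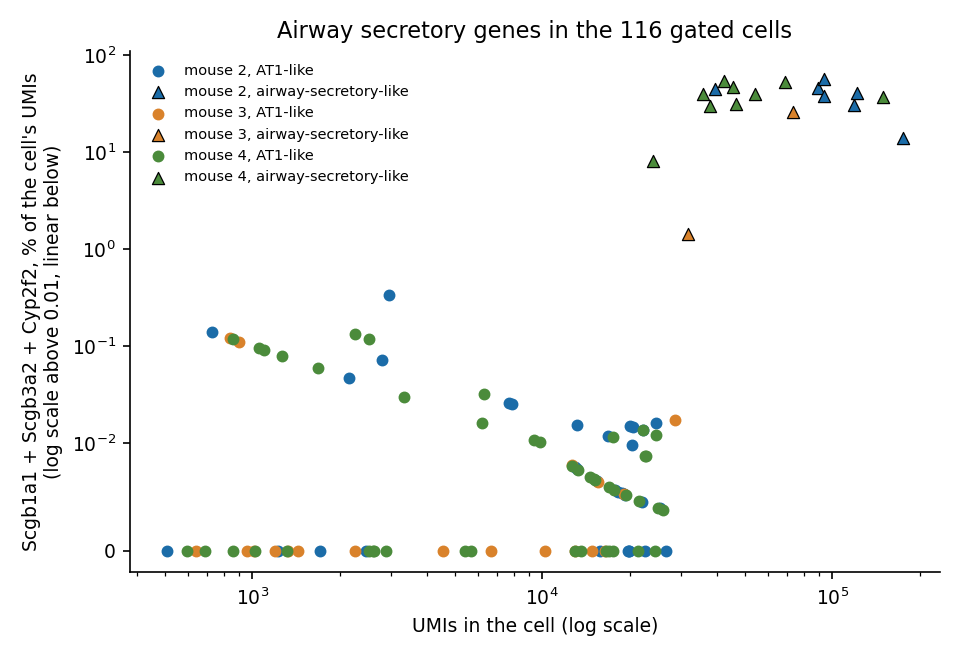
Each point is 1 of the 116 gated cells, with its UMIs on a log axis and the share of its UMIs from the airway secretory genes *Scgb1a1*, *Scgb3a2*, and *Cyp2f2* on the y axis (log above 0.01%, linear below), colored by mouse. The 18 airway-secretory-like cells (triangles) lie at 1.43% or higher, and the 98 AT1-like cells (circles) at 0.337% or lower.

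The gated cells were rare in every library. The 116 cells were 40, 21, and 55 of the cells that passed the filter, a share of 1.68% in mouse 2 (95% exact binomial interval 1.2 to 2.28), 0.807% in mouse 3 (0.5005 to 1.23), and 2.07% in mouse 4 (1.56 to 2.69), or 1.52% ± 0.647 (SD, n = 3). The intervals cover counting error only, and that of mouse 3 did not reach the share of mouse 4. The AT1-like cells alone numbered 33, 19, and 46, or 1.28% ± 0.509. AT2 cells in the same libraries were 16.1%, 9.73%, and 16.3% of the cells, so mouse 3 was lowest in both. At the edge of the rule, 5 cells had exactly 5 and 11 had exactly 6 UMIs of the 3 genes, while 5 cells with 4 UMIs and 15 with 3 UMIs stayed outside. The *Sftpc* limit fell into a gap, with 1.98% in the highest cell inside and 2.35% in the lowest cell outside. No cell barcode was shared between the gated cells of different mice, and 1 of the 116 cells scored as a doublet.

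AT1-like cells differed widely in depth. Of the 98 cells, 64 had at least 4000 UMIs (25, 10, and 29 per mouse, median 17258) and 34 had fewer (8, 9, and 17, median 1288.5). *Malat1*, a long noncoding RNA kept in the nucleus, had no UMI in 22 of the 34 shallow cells and in 1 of the 64 deep cells. Summed per mouse it took 3.10%, 2.78%, and 4.09% of the UMIs in deep cells and 0.0206%, 2.75%, and 0.0411% in shallow ones. The shallow cells of mouse 3 thus did not share the low value of mice 2 and 4, and the plot of *Malat1* by depth shows that 2 of its cells set their sum. *Neat1*, also a nuclear RNA, had 3 UMIs in the shallow cells (55.2 CPM) and 1241 in the deep cells (1154 CPM). Ribosomal protein genes took 13.6%, 12.95%, and 14.1% of the UMIs in shallow cells and 6.38%, 8.32%, and 6.71% in deep cells. The cut at 4000 UMIs was set after the data had been seen, and these values are a description without a test. What separates the shallow from the deep cells was not tested.

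**Figure D2:**
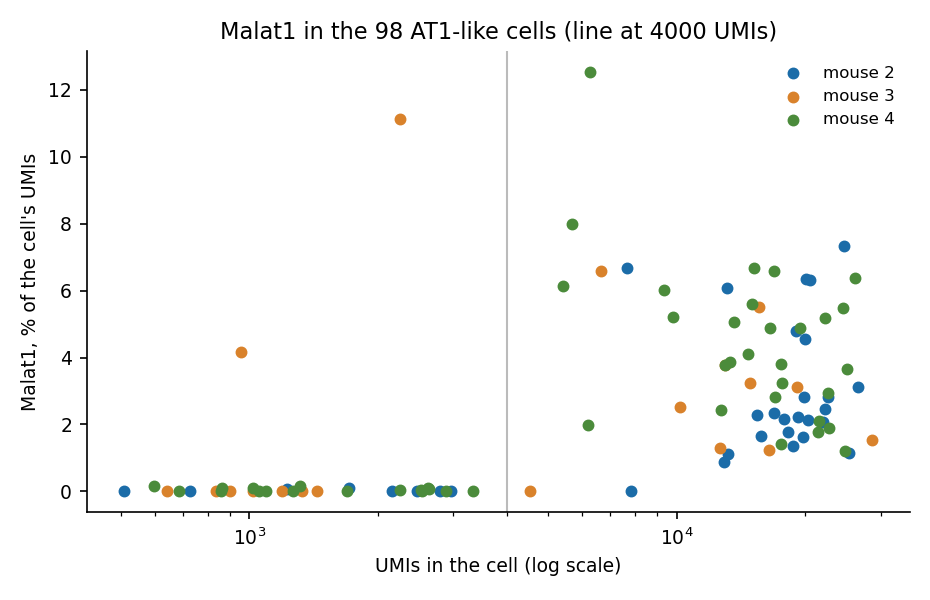
Each point is 1 of the 98 AT1-like cells, with its UMIs on a log axis and the percent of its UMIs from *Malat1* on a linear axis, colored by mouse. Left of the line at 4000 UMIs, 22 of 34 cells are at 0, and right of it 1 of 64.

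AT1 markers outside the rule were found in the shallow cells to unequal extents. *Hopx* had a UMI in 33, *Clic5* in 32, and *Ager* in 30 of the 34, but *Igfbp2* in 16 and *Pdpn* in 14. Medians over single cells were 3606 CPM of *Hopx* in shallow and 2131 in deep cells. *Ager* went the other way, with 3641 CPM in shallow and 13614 in deep cells. Levels of *Vegfa* also stood apart, at 442 CPM in the pooled shallow cells and 3056 CPM in the pooled deep cells. The shallow cells held 54352 and the deep cells 1075349 of the UMIs, so the sums below are close to those of the deep cells.

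The genes of the rule describe the cells and support nothing. *Aqp5* encodes the apical water channel of AT1 cells and lies at chr15:99590782-99594829 (GRCm38). It stood at 2053, 1255, and 1650.1 CPM in the AT1-like cells of mice 2, 3, and 4, at 236, 204, and 217 CPM in AT2 cells, and at 85.0, 52.5, and 79.5 CPM in all other cells of the lung. Here and below all other cells are the 7526 outside the gate, AT2 cells included. *Rtkn2* (chr10:67979570-68059740) stood at 1401, 1314, and 1587 CPM in AT1-like and 43.9, 50.6, and 86.9 CPM in AT2 cells. *Akap5* (chr12:76324891-76334153), which encodes an anchor for protein kinase A, stood at 2748, 2464, and 3302 against 164, 156, and 235 CPM. Within AT1-like cells all 98 had an *Akap5* UMI, 89 an *Rtkn2* UMI, and 78 an *Aqp5* UMI, and 74 had all of them.

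To measure these genes in cells chosen without them, cells were gated on *Hopx* and *Ager* (at least 5 UMIs together, all other conditions kept). This gave 129 cells (45, 25, and 59 per mouse), 105 of them among the 116. *Aqp5* stood at 853, 474, and 934 CPM in these cells against 236, 204, and 217 CPM in AT2 cells, a log2 fold change of 1.68 ± 0.26 (SE, edgeR adjusted p = 0.000499). *Rtkn2* stood at 521, 477, and 844 CPM, a log2 fold change of 3.22 ± 0.30 (edgeR adjusted p = 2.21e-05). *Akap5* stood at 1025, 887, and 1760 CPM, a log2 fold change of 2.60 ± 0.28 (edgeR adjusted p = 5.68e-05). None of these groups overlapped with AT2 cells. All 3 genes were thus higher, in a comparison where 41.9% of 10923 genes were called, 22.1% higher and 19.8% lower. Without airway cells the log2 fold changes were 2.31, 3.93, and 3.30, beside 44.7% of 10552 genes called, 22.4% higher and 22.3% lower. Leaving out TMM factors moved the median of all genes by 0.11 in the first of these comparisons.

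*Hopx*, a homeodomain protein of AT1 cells without DNA binding of its own (chr5:77086988-77115121), was not part of the rule. It stood at 2299, 2260.1, and 2519 CPM in AT1-like cells, 119, 96.0, and 167 CPM in AT2 cells, and 67.8, 49.7, and 84.5 CPM in all other cells. The groups did not overlap, and AT1-like cells differed from AT2 cells by a log2 fold change of 3.87 ± 0.17 (SE, edgeR adjusted p = 1.75e-12). *Ager*, the receptor for advanced glycation end products of the AT1 basolateral membrane (chr17:34597862-34600936), stood at 14027, 9769.6, and 13157 CPM in AT1-like and 1794, 1665, and 1875 CPM in AT2 cells. The difference was 2.46 ± 0.18 (SE, edgeR adjusted p = 2.12e-09) on the log2 scale, again without overlap. With all 116 cells both remained higher than in AT2 cells, by 3.19 and 1.73.

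*Ager* was not restricted to AT1-like cells. It had a UMI in 94 of the 98 AT1-like cells and in 1045 of the 1068 AT2 cells (97.8%), but in 7.23% of 1866 B cells, which should lack it (median depth 12965, 16200, and 4066 UMIs). B cells were taken as cells with at least 3 UMIs of *Cd79a* and *Cd79b*, and 3 of them also met the AT1 rule and 16 the AT2 rule. After each cell was thinned to 1000 UMIs, which left out 10, 35, and 4 shallower cells, the shares were 96.9% ± 1.33, 73.4% ± 1.68, and 2.53% ± 0.879 (SD, n = 3 mice). *Hopx* separated the types more sharply. It had a UMI in 97 of the AT1-like cells, 28.0% of the AT2 cells, and 5.57% of the B cells, and in 85.9% ± 6.47, 4.88% ± 0.901, and 1.31% ± 0.218 after thinning. *Pdpn* had a UMI in 76 AT1-like cells, 20.9% of AT2 cells, and 0.429% of B cells, and in 44.3% ± 6.22, 2.82% ± 0.373, and 0.0788% ± 0.0720 after thinning. For *Igfbp2* the shares were 70 cells, 7.58%, and 0.697%, and 63.3% ± 5.78, 2.30% ± 0.962, and 0.132% ± 0.133 after thinning.

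Across all genes, the 116 gated cells, airway cells included, were compared with AT2 cells by edgeR's quasi-likelihood test on UMIs summed per mouse, with the 8 genes of the rule left out. Of 10531 genes tested, 39.5% passed an adjusted p of 0.05, 20.3% (2139) higher and 19.2% (2018) lower in the gated cells. With the airway cells left out, 45.2% of 10219 genes passed, 21.1% (2155) higher and 24.1% (2467) lower. The counts of called genes in each list below stand beside these shares. Genes without a UMI in AT1-like cells passed the filter on low counts through AT2 cells alone, so their p-values are descriptive only. Genes with few UMIs there, such as *Notch1*, *Jag1*, *Tgfb3*, *Frem2*, *Cftr*, *Cebpa*, *Chil1*, and *Lamp3*, also passed it through AT2 cells. Without the airway cells their p-values are descriptive only as well. The p-values measure the spread between 3 mice. Statements above and below that sums did not overlap describe the named genes. The share of all genes without overlap is not given here, so no support was drawn from them. Of the 10140 genes tested in both, 1584 were higher and 1682 lower in both, and 59 that were higher with all 116 cells were lower without the airway cells. The split of calls depended on the scaling, since 46.6% of the calls without airway cells were higher with TMM factors. Without these factors the median log2 fold change of all genes moved by 0.34, and 67.1% of the calls (3353, against 1643 lower) were higher. Fold changes below carry the TMM factors, and differences are log2 fold changes with their SE, for AT1-like cells unless all 116 cells are named. The 2 cell types were also separated by *Sftpc* itself, so that genes which go with *Sftpc* were not measured independently of the choice of cells.

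The ranges of median depth overlapped, at 17821, 4540, and 11259 UMIs per AT1-like cell and 16868, 16658, and 15431 per AT2 cell (exact 2-sided permutation test, p = 0.4). The median mitochondrial share was 5.50% ± 0.523 in AT1-like cells and 7.18% ± 0.202 in AT2 cells without overlap (exact permutation test, p = 0.1, the smallest that 3 against 3 medians allow). The median number of detected genes was 4606, 2050, and 3613.5 in AT1-like cells against 3959, 4056, and 3823 in AT2 cells, and the ranges overlapped (p = 0.7, exact permutation test). These tests treated the medians of the cell types as independent, although the same 3 mice gave both. Their p-values thus leave the pairing by mouse out of account.

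All 21 markers of the AT1 list were higher in the gated than in AT2 cells, with and without the airway cells, with a median log2 fold change of 2.76 and 3.35 beside -0.024 and -0.068 for all genes tested. The list was chosen with earlier results of these data known. *Pdpn*, the mucin-type membrane protein podoplanin, stood at 795, 716, and 819 CPM in AT1-like and 40.8, 52.9, and 54.6 CPM in AT2 cells. Its log2 fold change was 3.66 ± 0.11 (SE, edgeR adjusted p = 1.48e-13), and the groups did not overlap. *Clic5*, a chloride intracellular channel protein tied to the actin cortex, stood at 2474, 2293, and 2706 against 98.8, 113, and 177 CPM and differed by 3.93 ± 0.18 (SE, edgeR adjusted p = 2.70e-12). *Igfbp2*, an IGF binding protein, stood at 2609, 1386, and 2389.7 against 73.0, 71.6, and 135 CPM and differed by 4.21 ± 0.24 (SE, edgeR adjusted p = 4.79e-11). Neither gene overlapped between the types, although *Igfbp2* was lower in mouse 3 than in the other mice. *Spock2*, a secreted proteoglycan, differed by 4.30 ± 0.20 and the receptor gene *Gprc5a* by 2.93 ± 0.12. *Emp2*, a small membrane-spanning protein, differed by 2.73 ± 0.14, the keratin gene *Krt7* by 3.35 ± 0.11, and *Ahnak* by 3.29 ± 0.15. *Sec14l3*, a lipid-binding protein, differed by 2.76 ± 0.10, and was also high in the airway cells (899, 438, and 946 CPM). *Cyp2b10*, a cytochrome P450, stood at 37.9, 65.7, and 71.6 CPM against 4.00, 2.30, and 5.10 CPM (log2 fold change 3.49 ± 0.34, edgeR adjusted p = 9.76e-08), and *Gramd2* differed by 2.03 ± 0.092.

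**Figure D3:**
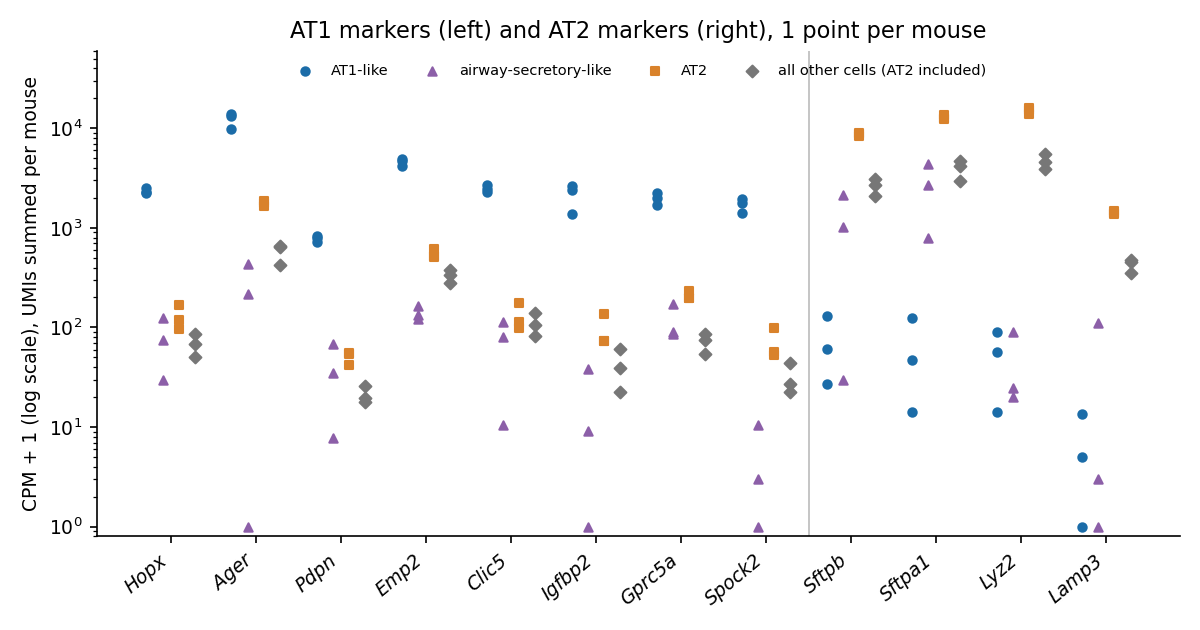
CPM + 1 on a log axis of 8 AT1 markers and 4 AT2 markers, with 1 point per mouse for AT1-like cells, airway-secretory-like cells of the same gate, AT2 cells, and all other cells that passed the filter (AT2 cells included). All AT1-like points of the AT1 markers, such as *Hopx* at 2299, 2260.1, and 2519 CPM, lie above those of AT2 cells, and the airway-secretory-like points lie below the AT1-like ones.

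Markers of AT2 cells were lower in AT1-like cells. All 20 markers of the AT2 list were lower without the airway cells, with a median log2 fold change of -6.58, and 19 of 20 were lower with all 116 cells, with a median of -3.97. *Sftpb*, a surfactant protein needed for lamellar bodies, stood at 131, 59.1, and 25.8 CPM in AT1-like and 8969, 8663, and 8274 CPM in AT2 cells, and differed by -7.20 ± 0.31 (SE, edgeR adjusted p = 1.75e-12). *Lyz2*, the lysozyme of alveolar epithelium and macrophages, stood at 88.5, 13.1, and 55.7 against 15813, 15227, and 13861 CPM and differed by -8.23 ± 0.30 (SE, edgeR adjusted p = 3.05e-13). *Lamp3*, a lamellar body membrane protein, stood at 12.6, 0, and 3.98 against 1384, 1488, and 1413 CPM and differed by -7.98 ± 0.26 (SE, edgeR adjusted p = 1.48e-13). In each of these genes mouse 2 was highest among the AT1-like sums, far below any AT2 sum. *Sftpb* had a UMI in 27 and *Lyz2* in 28 of the 98 AT1-like cells, and in 9.43% and 16.2% of the shallower B cells. At 1000 UMIs per cell the shares for *Sftpb* were 5.78% ± 2.88 of AT1-like and 3.93% ± 1.62 of B cells, and for *Lyz2* 6.05% ± 5.59 and 5.52% ± 1.08 (SD, n = 3 mice). The ranges over mice overlapped for both genes, and the B cells include the 16 that also met the AT2 rule. *Etv5*, the ETS factor that maintains AT2 cells, differed by -5.85 ± 0.24 and the lipid transporter *Abca3* by -3.85 ± 0.16. The 1 exception with all 116 cells was *Chil1*, a chitinase-like protein, whose log2 fold change was -1.67 ± 0.66 (SE, edgeR adjusted p = 0.0646). It was called lower without mouse 2 (-3.71, edgeR adjusted p = 4.17e-06) and with the mouse as a block (-2.62, edgeR adjusted p = 0.0113). In the airway cells *Chil1* stood at 2293, 353, and 313 CPM, and without them at 16.9, 0, and 9.94 CPM against 1836, 1856, and 2021 CPM in AT2 cells, a difference of -7.70 ± 0.25 (SE, edgeR adjusted p = 1.48e-13).

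Tested genes of the basement membrane were higher in AT1-like cells with 1 exception. Of 17 tested, 16 were higher and 1 was lower in the gated cells, with and without the airway cells, with median log2 fold changes of 2.23 and 2.94. *Col4a3* and *Col4a4* encode chains of the collagen IV network that is found in the kidney glomerulus and the alveolus. *Col4a3* stood at 2569, 2254, and 2555 CPM in AT1-like and 98.2, 120.1, and 163 CPM in AT2 cells and differed by 3.94 ± 0.16 (SE, edgeR adjusted p = 7.64e-13). *Col4a4* stood at 3191, 2378, and 3374 against 160.0, 189, and 247 CPM and differed by 3.59 ± 0.17 (SE, edgeR adjusted p = 3.92e-12). Neither overlapped between the types. The chains of the common network, *Col4a1* and *Col4a2*, differed less, by 1.36 ± 0.11 and 1.66 ± 0.10, and *Col4a1* stood at 1082, 797, and 1030.3 CPM in all other cells. With the *Hopx* and *Ager* gate in place of the rule, airway cells included, *Col4a1* was no longer called (log2 fold change 0.40, edgeR adjusted p = 0.106).

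*Lama3* and *Lamb3* encode laminin chains that anchor epithelia. *Lama3* stood at 872, 979, and 960.3 CPM in AT1-like and 46.3, 46.3, and 59.3 CPM in AT2 cells and differed by 3.85 ± 0.11 (SE, edgeR adjusted p = 1.48e-13). *Lamb3* stood at 763, 565, and 634 against 168, 161, and 161 CPM and differed by 1.70 ± 0.11 (SE, edgeR adjusted p = 3.23e-10). Both were without overlap. The heparan sulfate proteoglycans of the membrane followed, agrin (*Agrn*) by 3.23 ± 0.11 and perlecan (*Hspg2*) by 3.42 ± 0.13. The integrin ligand nephronectin (*Npnt*) differed by 2.87 ± 0.15 and the metalloproteinase inhibitor *Timp3* by 2.94 ± 0.13. The lower gene was *Frem2*, of a complex that holds epithelium to mesenchyme in embryos, at 2.11, 0, and 9.94 CPM in AT1-like and 19.6, 19.3, and 19.7 CPM in AT2 cells (log2 fold change -2.21 ± 0.46, edgeR adjusted p = 0.000633). *Nid1* and *Nid2* were too low to be tested.

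Most of the tested genes for secreted signals were higher in AT1-like than in AT2 cells. Of 25 tested with all 116 cells, 17 were higher, 2 were lower, and 6 were not called, with a median of 2.37. Without the airway cells 18 of 24 were higher, 3 were lower, and 3 were not called, with a median of 2.73. *Vegfa*, the main growth factor for ECs (chr17:46016993-46032369), stood at 3075, 2582, and 2899 CPM in AT1-like cells, 155, 165, and 235 CPM in AT2 cells, and 118, 119, and 155 CPM in all other cells. AT1-like and AT2 cells did not overlap and differed by 3.62 ± 0.15 (SE, edgeR adjusted p = 1.56e-12). *Vegfa* had a UMI in 80 of the 98 AT1-like cells, 70.4% of the AT2 cells, and 3.38% of the B cells. At 1000 UMIs per cell the shares were 75.3% ± 7.35, 10.7% ± 0.992, and 0.677% ± 0.253.

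Growth factors that act on mesenchyme were among the higher genes. *Pdgfa*, which drives alveolar myofibroblasts, stood at 1311, 1183, and 1477 CPM in AT1-like and 124, 121, and 149.6 CPM in AT2 cells and differed by 3.01 ± 0.12 (SE, edgeR adjusted p = 7.55e-13). *Pdgfb*, known as the signal that recruits pericytes, stood at 371, 243, and 346 against 36.3, 31.3, and 38.4 CPM and differed by 2.90 ± 0.13 (SE, edgeR adjusted p = 3.71e-12). *Shh*, the hedgehog ligand of lung epithelium, stood at 185, 85.4, and 177 against 29.96, 32.0, and 30.8 CPM and differed by 2.09 ± 0.16 (SE, edgeR adjusted p = 6.16e-09). None of the groups overlapped, and mouse 3 was lowest among the AT1-like sums for each gene. The Wnt ligands *Wnt3a* and *Wnt7a* differed by 3.81 ± 0.26 and 3.71 ± 0.30, *Tgfb2* by 4.27 ± 0.22, *Fgf18* by 4.61 ± 0.25, and *Fgf1* by 1.56 ± 0.10.

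Of the guidance and neurotrophic ligands of the list, *Sema3a*, *Sema3b*, *Sema3e*, *Sema3f*, and *Bdnf* were higher in both fits. *Sema3c* (-0.70 ± 0.50) and *Slit2* (-0.0049) did not pass the test in either fit, and *Slit3* was lower in both. *Sema3e*, a semaphorin that repels ECs through plexin D1, stood at 1300.3, 919.8, and 1366 CPM in AT1-like and 33.8, 47.2, and 74.9 CPM in AT2 cells and differed by 4.22 ± 0.21 (SE, edgeR adjusted p = 7.16e-12). *Sema3a*, a ligand of neuropilin 1, stood at 590.1, 394, and 644 against 19.9, 19.1, and 34.2 CPM and differed by 4.19 ± 0.18 (SE, edgeR adjusted p = 2.02e-12). *Bdnf*, the brain-derived neurotrophic factor, stood at 164, 131, and 149 against 4.75, 2.99, and 7.95 CPM and differed by 4.45 ± 0.24 (SE, edgeR adjusted p = 3.74e-11). The groups did not overlap for any of them. The neuropilin gene *Nrp1* itself was lower in AT1-like cells, at 396, 197, and 419 CPM against 526, 561, and 583 CPM (log2 fold change -0.94 ± 0.15, edgeR adjusted p = 4.11e-05).

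The lower ligands were *Tgfb3*, *Jag1*, and *Slit3*. All of them passed the filter on low counts through AT2 cells, so their calls describe the cells and support nothing. *Tgfb3* stood at 10.5, 6.57, and 3.98 CPM in AT1-like and 35.1, 32.4, and 28.7 CPM in AT2 cells and differed by -2.51 ± 0.38 (SE, edgeR adjusted p = 2.29e-05). The guidance gene *Slit3* had no UMI in AT1-like cells against 13.5, 24.2, and 18.6 CPM in AT2 cells, at least 7.06-fold lower (against 3 UMIs over the 98 cells, edgeR adjusted p = 9.79e-05).

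**Figure D4:**
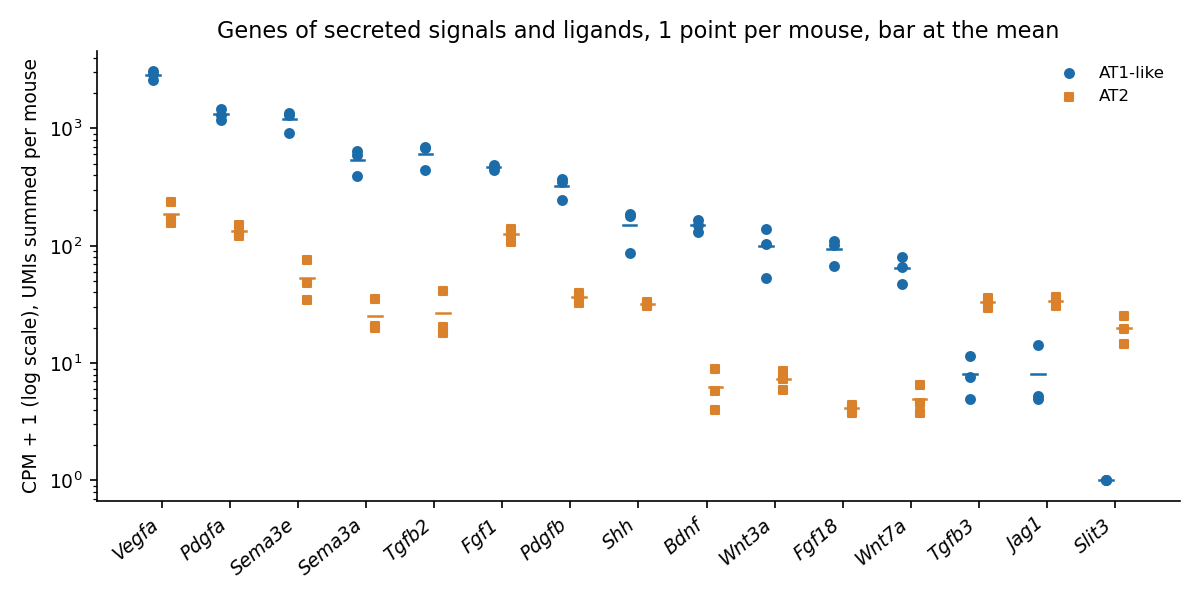
CPM + 1 on a log axis of 15 genes for secreted signals and ligands in AT1-like and AT2 cells, with 1 point per mouse and a bar at the mean. The 12 genes on the left are higher in every mouse in AT1-like cells, with *Vegfa* at 3075, 2582, and 2899 CPM, and the 3 on the right are higher in AT2 cells.

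Of the Notch pathway AT1-like cells held few transcripts besides *Hes1*. *Dll4* had no UMI in all 116 cells, nor thus in the 98 AT1-like cells, 34 of which were shallow. A count of 0 allows up to 3 UMIs, a level of up to 2.66 CPM (3.27 CPM by the exact 95% Poisson limit), for counting error only. In AT2 cells it had 34 UMIs (15, 9, and 10 per mouse), or 1.92 CPM, which lies under the limit for AT1-like cells, so that a difference between these types was not detectable at this depth. In all other cells together *Dll4* stood at 31.6 CPM. Of 15 pathway genes, 8 could be tested with all 116 cells, of which 3 were higher and none was lower, with a median of 0.055. Without the airway cells 1 of 6 was higher and 3 were lower, with a median of -0.75, and without TMM factors 2 (*Notch1* and *Jag1*) were lower. Of all genes tested, 20.3% were higher and 19.2% lower with all 116 cells, and 21.1% and 24.1% without the airway cells. The 1 higher gene of 6 is thus close to the share of all genes. *Notch1*, the receptor, stood at 2.11, 6.57, and 0 CPM in AT1-like, 40.3, 41.0, and 41.6 CPM in AT2, and 43.7, 76.3, and 71.4 CPM in the airway cells. AT1-like and AT2 cells did not overlap (log2 fold change -4.83 ± 0.47, edgeR adjusted p = 1.13e-07). With so few UMIs in AT1-like cells *Notch1* passed the filter on low counts through AT2 cells. This fold change and its p-value are therefore descriptive only. With 1 mouse left out the log2 fold change ranged from -5.63 (without mouse 3) to -4.02 (without mouse 4). With all 116 cells the log2 fold change of *Notch1* was -0.38 ± 0.15 (SE, edgeR adjusted p = 0.0694), and the gene was called lower in 4 alternatives to that fit. *Jag1*, a ligand, stood at 4.21, 13.1, and 3.98 CPM in AT1-like, 29.7, 35.7, and 34.2 CPM in AT2, and 54.7, 38.1, and 55.5 CPM in the airway cells. It differed by -2.96 ± 0.37 (SE, edgeR adjusted p = 2.90e-06) without and by -0.077 ± 0.17 (SE, edgeR adjusted p = 0.807) with the airway cells. The first of these p-values is descriptive only, since *Jag1* too passed the filter through AT2 cells. *Hes1*, a target of Notch and other pathways, was higher in both fits and stood at 308, 322, and 266 CPM in AT1-like and 70.1, 60.3, and 77.6 CPM in AT2 cells (log2 fold change 1.73 ± 0.13, edgeR adjusted p = 2.38e-09).

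YAP and TAZ are coactivators that respond to cell stretch and bind DNA through TEAD factors, and AT1 cells are known for their activity. Of 15 tested genes of this pathway and its common targets, 10 were higher and 1 was lower with all 116 cells (median 1.25), and 9 were higher and 1 was lower without the airway cells (median 1.86). *Wwtr1*, which encodes TAZ, stood at 301, 388, and 391.7 CPM in AT1-like and 75.8, 83.5, and 80.0 CPM in AT2 cells and differed by 1.82 ± 0.11 (SE, edgeR adjusted p = 1.61e-10). *Yap1*, its paralog, stood at 48.5, 59.1, and 61.6 against 65.7, 74.8, and 67.5 CPM, without overlap, and was lower (log2 fold change -0.64 ± 0.16, edgeR adjusted p = 0.00325). This call did not hold without mouse 2 (log2 fold change -0.52, edgeR adjusted p = 0.0646) or without TMM factors (-0.31, edgeR adjusted p = 0.162). *Tead1* differed by 2.50 ± 0.099.

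The usual target genes *Ctgf*, *Cyr61*, and *Ankrd1* were higher in AT1-like cells. *Ctgf*, a matricellular growth factor, stood at 415, 131, and 429 CPM in AT1-like and 6.08, 11.7, and 23.0 CPM in AT2 cells and differed by 4.41 ± 0.32 (SE, edgeR adjusted p = 1.96e-09). *Cyr61*, of the same family, stood at 438, 118, and 258 against 16.2, 11.5, and 26.6 CPM and differed by 3.69 ± 0.29 (SE, edgeR adjusted p = 5.05e-09). *Ankrd1*, an ankyrin repeat protein known from stretched muscle, stood at 71.7, 26.3, and 71.6 against 1.19, 2.07, and 2.85 CPM and differed by 4.62 ± 0.35 (SE, edgeR adjusted p = 3.44e-09). No group overlapped, and mouse 3 was lowest of the AT1-like sums in each. Within AT1-like cells *Ctgf* stood at 55.2 CPM in the shallow cells, which held 3 UMIs of it, and at 399.9 CPM in the deep cells. *Amotl2* differed by 1.86 ± 0.12.

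Promoter windows of RefSeq (GRCm38.p6, 250 bases before to 50 after each gene start) were searched for the TEAD motif CATTCC on both strands. It was found in 16.6% of 27025 genes with a window and in 10 of the 13 genes of this list that have one (76.9%), in 2 of 19 AT1 markers (10.5%), and in 5 of 17 AT2 markers (29.4%). Many genes of the list are known as TEAD targets, so the list was not independent of the motif. The sites of 2 genes higher in AT1-like cells are shown, on the strand of the gene, with the motif or its reverse complement in capitals. *Ankrd1* has sites at chr19:36120037-36120066 and chr19:36119950-36119979 (minus strand), whose motifs begin 210 and 123 bases before the start. *Cyr61*, listed as Ccn1, has a site at chr3:145650071-145650100 (minus strand), 103 bases before the start.
Ankrd1, first site: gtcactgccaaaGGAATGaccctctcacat
Ankrd1, second site: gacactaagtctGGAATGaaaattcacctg
Ccn1: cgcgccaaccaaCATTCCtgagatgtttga
A match of these letters is a description of the window and not a measured binding site.

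Most membrane and caveola genes of the list were higher in AT1-like cells. Of 17 tested, 16 were higher and none was lower, with and without the airway cells, with medians of 2.08 and 2.77. *Cav1*, the main protein of caveolae, which are dense in AT1 cells, stood at 1220.2, 762, and 970.2 CPM in AT1-like and 38.3, 33.4, and 64.8 CPM in AT2 cells and differed by 4.12 ± 0.20 (SE, edgeR adjusted p = 5.06e-12). Its partners followed without overlap, *Cav2* at 474, 381, and 425 against 36.9, 37.0, and 40.4 CPM (log2 fold change 3.17 ± 0.11, edgeR adjusted p = 1.48e-13) and the coat protein *Ptrf* at 934, 815, and 907 against 87.9, 95.04, and 101 CPM (log2 fold change 2.91 ± 0.097, edgeR adjusted p = 1.48e-13). *S100a6*, a calcium-binding protein, differed by 4.197 ± 0.17 and *Msn*, which links membrane and actin, by 2.77 ± 0.12.

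Most tight junction genes that passed the test were higher in AT1-like cells. Of 12 tested, 7 were higher and 1 was lower with all 116 cells (median 0.92), and 7 were higher and 2 were lower without the airway cells (median 1.03). *Cldn18*, the main claudin of the alveolus, stood at 5975, 5571, and 6145 CPM in AT1-like and 1376, 1415, and 1494 CPM in AT2 cells and differed by 1.71 ± 0.14 (SE, edgeR adjusted p = 6.19e-09). *Ocln* differed by 1.91 ± 0.15, *Tjp1* by 1.75 ± 0.11, and the junction plaque gene *Cgn* by 1.66 ± 0.11. *Cldn3*, a claudin typical of AT2 cells, stood at 69.5, 131, and 49.7 against 453, 441, and 443 CPM and was lower (log2 fold change -3.01 ± 0.18, edgeR adjusted p = 1.11e-10). With all 116 cells its log2 fold change was -0.97 ± 0.24 (SE, edgeR adjusted p = 0.0077), and this call was not made without mouse 4 (-0.89, edgeR adjusted p = 0.0948). *Epcam*, common to all lung epithelium, was lower at 160.2, 191, and 149 CPM against 278, 273, and 266 CPM (log2 fold change -1.10 ± 0.12, edgeR adjusted p = 4.21e-07).

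The epithelial sodium channel, which clears fluid from the air space, was higher in AT1-like cells in all 3 subunits. *Scnn1a* stood at 748, 756, and 797 CPM against 101, 116, and 108 CPM in AT2 cells (log2 fold change 2.49 ± 0.093, edgeR adjusted p = 3.49e-13). *Scnn1b* stood at 259, 361, and 256 against 19.9, 25.1, and 23.7 CPM (log2 fold change 3.26 ± 0.14, edgeR adjusted p = 1.28e-12), and *Scnn1g* at 523, 565, and 642 against 20.5, 26.7, and 40.1 CPM (log2 fold change 3.97 ± 0.17, edgeR adjusted p = 1.68e-12). No subunit overlapped. *Aqp1*, a water channel best known from capillary ECs, stood at 1300.3, 939.5, and 1389.7 CPM in AT1-like, 22.7, 48.3, and 79.4 CPM in AT2, and 295, 207, and 294 CPM in all other cells (log2 fold change 4.30 ± 0.27, edgeR adjusted p = 2.69e-10). Other genes of the list went the other way, and *Cftr*, the chloride channel, stood at 2.11, 26.3, and 1.99 CPM against 81.3, 104, and 87.8 CPM (log2 fold change -4.41 ± 0.39, edgeR adjusted p = 2.66e-08), with mouse 3 highest. In all, 4 of 12 transport genes were higher and 7 were lower without the airway cells (4 and 6 without TMM factors), with a median of -0.86. Of all 10219 genes in that fit 21.1% were higher and 24.1% lower (3353 and 1643 genes without TMM factors). With all 116 cells 6 of 14 were higher and 4 were lower, with a median of 0.0073, beside 20.3% and 19.2% of all genes. No more was read from the counts of higher transport genes.

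Transcription factors were split between the types. With all 116 cells 10 of 28 were higher and 11 were lower (median -0.098). Without the airway cells 9 of 25 were higher and 12 were lower (median -0.33), and without TMM factors 10 were higher and 9 were lower (median 0.0098). Among all genes tested, 20.3% were higher and 19.2% lower with all 116 cells, and 21.1% and 24.1% without the airway cells. Without airway cells and TMM factors 3353 of all 10219 genes were higher and 1643 lower. *Nkx2-1*, the lineage factor of lung epithelium, stood at 588, 493, and 465 CPM in AT1-like and 653, 691, and 691 CPM in AT2 cells, lower by a small margin (log2 fold change -0.72 ± 0.11, edgeR adjusted p = 3.65e-05). *Cebpa*, a factor of AT2 maturation, stood at 8.43, 0, and 1.99 against 331, 328, and 308 CPM and was far lower (log2 fold change -6.51 ± 0.28, edgeR adjusted p = 1.53e-12). *Gata6* was higher, at 293, 289, and 300.2 against 84.2, 92.5, and 94.97 CPM (log2 fold change 1.37 ± 0.10, edgeR adjusted p = 2.21e-09). These groups did not overlap. *Foxp1* differed by -2.62 ± 0.14 and *Id2* by -4.18 ± 0.16, both lower, while the Kruppel-like factors *Klf2* and *Klf6* were higher, by 3.05 ± 0.35 and 2.04 ± 0.11. *Sox9*, of distal progenitors, had no UMI in AT1-like cells, at least 9.28-fold lower than in AT2 cells (21.1, 30.4, and 22.5 CPM, edgeR adjusted p = 8.20e-06).

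The NKX2-1-type motif CTTGAG was found in the promoter windows of 18% of genes, and in 3 of the 19 AT1 markers with a window (15.8%), *Hopx*, *Igfbp2*, and *Spock2*, and 4 of the 17 AT2 markers (23.5%). Stretches of 2 AT1 markers with the motif are shown, with its letters in capitals, for *Hopx* at chr5:77115218-77115247 (minus strand, motif from 112 bases before the start) and for *Spock2* at chr10:60106038-60106067 (plus strand, from 207 bases before the start).
Hopx: gcagaccaaagcCTTGAGaggcggcaacat
Spock2: ggcttgcaactcCTTGAGagctggactgac
The share in the AT1 markers was close to that of all genes, and no more was read from these letters.

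Most genes of lipid synthesis, the basis of surfactant, were lower in AT1-like cells. Of 19 tested genes, 15 were lower and none was higher with all 116 cells (median -1.90), and 16 were lower and 1 was higher without the airway cells (median -2.60, or -2.38 with the gene at 0 UMIs set to its bound). *Fasn*, the fatty acid synthase, stood at 29.5, 46.0, and 27.8 CPM in AT1-like and 644, 653, and 598 CPM in AT2 cells (log2 fold change -4.68 ± 0.18, edgeR adjusted p = 4.06e-13). *Scd1*, the main desaturase, stood at 33.7, 98.5, and 9.94 against 2835, 2652, and 2316 CPM (log2 fold change -6.66 ± 0.29, edgeR adjusted p = 2.27e-12). *Fabp5*, a fatty acid carrier, stood at 8.43, 59.1, and 9.94 against 1307, 1033, and 1140.3 CPM (log2 fold change -6.50 ± 0.29, edgeR adjusted p = 2.85e-12). The types did not overlap, and mouse 3 was highest among the AT1-like sums for each. *Srebf1*, the regulator of this pathway, differed by -2.38 ± 0.17. The exception was the desaturase *Scd2*, at 2042, 1787, and 1924 CPM in AT1-like and 815, 889, and 847 CPM in AT2 cells (log2 fold change 0.84 ± 0.11, edgeR adjusted p = 4.84e-06), which stood at 72.4, 9.53, and 55.5 CPM in the airway cells and differed by 0.14 ± 0.12 (SE, edgeR adjusted p = 0.388) with all 116 cells.

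Most tested genes of dividing cells were called lower in AT1-like than in AT2 cells. Of 9 tested genes of the cell cycle, 4 were lower with all 116 cells (median -1.38) and 7 without the airway cells (5 without TMM factors), and none was higher. The median without the airway cells was -3.34, or -2.97 with genes at 0 UMIs set to their bounds. Of all genes tested, 19.2% were lower with all 116 cells and 24.1% without the airway cells. Without airway cells and TMM factors 1643 of all 10219 genes were lower. Of the 7 called genes, *Mki67*, *Top2a*, and *Cdk1* had no UMI in AT1-like cells and passed the filter on low counts through AT2 cells alone. The calls of this list describe the cells and support nothing. *Mki67* had no UMI in any AT1-like cell against 40.6, 78.9, and 24.6 CPM in AT2 cells, at least 18.1-fold lower (edgeR adjusted p = 0.00136). *Top2a*, a topoisomerase of dividing cells, had no UMI either, against 26.4, 75.7, and 21.3 CPM in AT2 cells, at least 15.5-fold lower (edgeR adjusted p = 0.00643). Mouse 3 was highest among the AT2 sums of both genes. Both bounds use the AT2 mean of the 3 mice, and would be smaller without mouse 3.

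Genes known from the transition of AT2 to AT1 cells were in part higher. With all 116 cells 10 of 12 were higher and none was lower (median 1.85), but without the airway cells 6 of 11 were higher and 2 were lower (median 1.46). Among all genes tested, 20.3% were higher and 19.2% lower with all 116 cells, and 21.1% and 24.1% without the airway cells. Of the called genes only higher ones are described here. *Krt8*, a keratin of simple epithelia, stood at 542, 689.9, and 493 CPM in AT1-like and 164, 156, and 156 CPM in AT2 cells (log2 fold change 1.46 ± 0.11, edgeR adjusted p = 2.88e-09). *Krt19* stood at 497, 414, and 521 against 46.0, 50.4, and 51.8 CPM (log2 fold change 2.98 ± 0.10, edgeR adjusted p = 1.89e-13), with 410.0, 887, and 424 CPM in the airway cells. *Itgb6*, an integrin that activates TGF-β, stood at 691, 427, and 709.8 against 24.8, 23.2, and 37.2 CPM (log2 fold change 4.14 ± 0.17, edgeR adjusted p = 8.58e-13). *Lgals3*, a galectin, differed by 2.87 ± 0.15. None of these overlapped between AT1-like and AT2 cells. *Cdkn1a*, the p21 inhibitor of the cell cycle, did, at 27.4, 315, and 51.7 CPM in AT1-like and 27.4, 30.6, and 48.0 CPM in AT2 cells. Only mouse 3 was high, and the log2 fold change was 0.84 ± 0.48 (SE, edgeR adjusted p = 0.172) without the airway cells and 1.07 ± 0.33 (SE, edgeR adjusted p = 0.0221) with them. Without mouse 3 these values were -0.28 (edgeR adjusted p = 0.565) and 0.61 (edgeR adjusted p = 0.109). With the mouse as a block the first became a call (0.86, edgeR adjusted p = 0.0061).

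**Figure D5:**
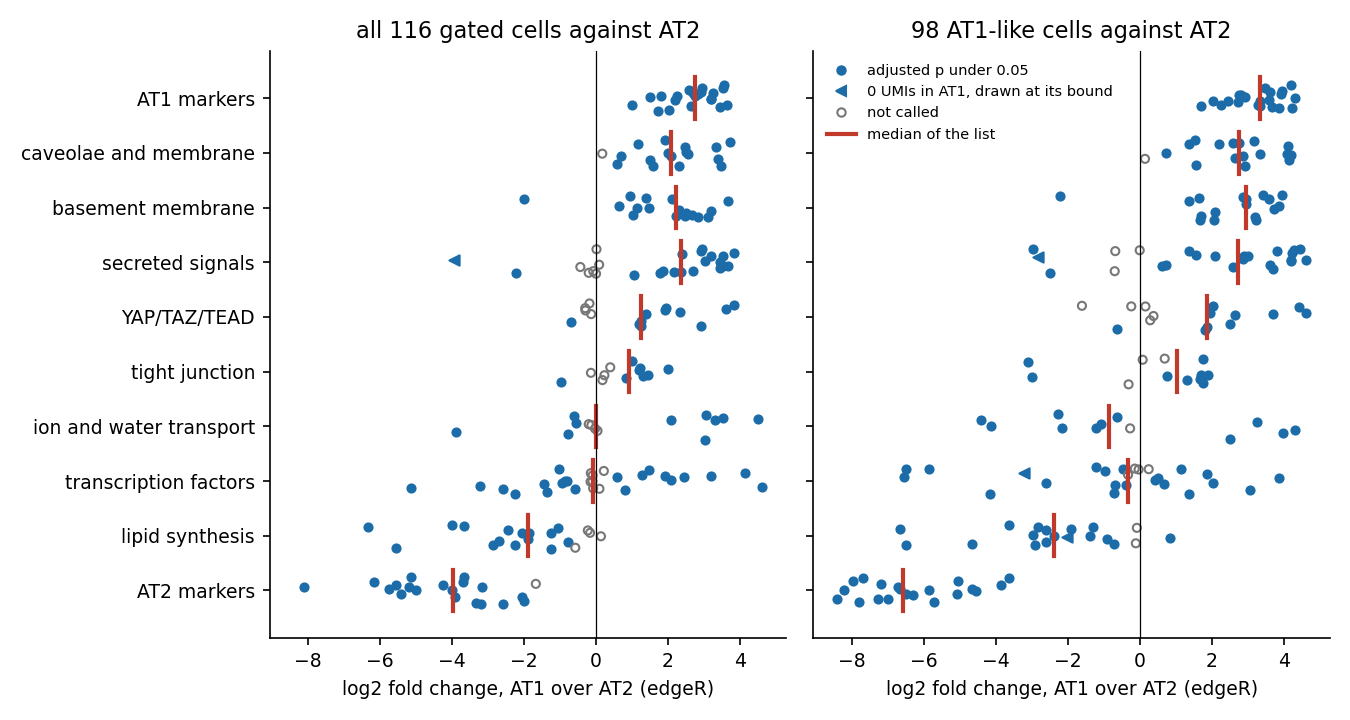
Log2 fold changes of gated over AT2 cells (edgeR) for the tested genes of 10 lists, with all 116 gated cells on the left and the 98 AT1-like cells on the right. Filled points passed an adjusted p of 0.05, triangles are genes without a UMI in the gated cells of that fit drawn at their bound, and red bars are list medians with those genes at their bounds, such as 3.35 for AT1 markers and -6.58 for AT2 markers on the right.

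Among all called genes of at least 50 CPM, the choice by largest fold change depended on the airway cells. With all 116 cells the list of higher genes was led by the airway genes *Scgb1a1*, *Gabrp*, and *Cp*. Without them it was led by *Tmem108*, a transmembrane protein, at 73.8, 39.4, and 53.7 CPM in AT1-like and 1.78, 0.690, and 2.10 CPM in AT2 cells (log2 fold change 4.82 ± 0.35, edgeR adjusted p = 1.96e-09), *Ankrd1*, and *Fgf18*. The T-cadherin gene *Cdh13* (4.403 ± 0.30) and *Lims2*, a partner of integrin-linked kinase (4.35 ± 0.26), were also among the first 15. On the lower side, 11 of the first 15 genes had no UMI in AT1-like cells, and *Il33* and *Chia1* had 1, so that their order rests on no measured fold. Among them the apolipoprotein gene *Apoc1* had no UMI against 233, 342, and 243 CPM in AT2 cells, at least 103-fold lower (edgeR adjusted p = 3.42e-10).

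Among the deep cells, a small set lacked *Igfbp2*. It had no UMI in 10 of the 64 deep AT1-like cells (5, 2, and 3 per mouse). They fell into a pair of equal sets by *Sftpc*, with 0.98% to 1.98% of the UMIs in 5 cells, just under the limit of the rule, and 0% to 0.40% in the other 5. Of the 54 cells with *Igfbp2*, 2 had at least 0.5%. The doublet among the gated cells was 1 of the 10 cells, and another, of mouse 3, held 3 UMIs of *Hopx* and 14 of *Ager*. Both stayed in the AT1-like sums, and the cell of mouse 3 held 12981 of the 152207 UMIs of that mouse. Its weight on genes where mouse 3 stood apart was not tested. For *Hopx* the medians over the 10 and the 54 cells were 1464 and 2228 CPM, for *Pdpn* 459 and 811, and for *Ager* 12521 and 13649. They were also shallower, with medians of 13155.5 and 18293.5 UMIs. The sets were formed after the data had been seen and carry no test.

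Markers of other cell types were mostly low in AT1-like cells, with single genes as exceptions. The rule itself kept out cells with *Ptprc*, *Cdh5*, or more than 5 collagen UMIs, which bears on the immune, endothelial, and stromal sums. The 12 endothelial markers summed to 303, 191, and 233 CPM, most of it *Esam* (226 CPM), an adhesion molecule of tight junctions, with *Pecam1* and *Car4* at 0. The 12 stromal markers summed to 8879, 7812, and 9388 CPM, of which *Sparc*, a matrix protein, made up 8612 CPM, with *Dcn*, *Lum*, *Pdgfra*, and *Tcf21* at 0. *Sparc* stood at 1148, 1143, and 1359 CPM in AT2 cells (log2 fold change 2.49 ± 0.16, edgeR adjusted p = 2.55e-10). The 6 mesothelial markers summed to 582, 526, and 604 CPM, all of it from *Krt19* (477 CPM) and *Msln* (84.3, 112, and 83.5 CPM), with *Upk3b*, *Upk1b*, *Wt1*, and *Lrrn4* at 0. The 12 immune markers summed to 18.97, 26.3, and 23.9 CPM, with *Cd79b* the most abundant, and the 8 macrophage markers to 6.32, 6.57, and 5.96 CPM. The 10 airway markers summed to 112, 72.3, and 87.5 CPM, mostly *Scgb1a1*, and none of 5 red cell genes had a UMI. The source of *Esam*, *Sparc*, *Krt19*, and *Msln* transcripts in these cells was not tested.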

How the data were processed

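Per the labels, whole lungs were run on the 10x Chromium (3′ v3) with 16000 cells loaded per library, and the submitters' processing notes name Cell Ranger 3.0.2 and mm10. The annotation used for counting is not given in the sources used here. The deposited matrices hold whole-number UMI counts that were not normalized, for 9644 barcodes, of which 7642 passed the filter. The series text states 5677 cells and names no filter. A limit of 10% on mitochondrial UMIs, tried as an alternative, left 5678. The members and all gene lists were chosen with earlier results of these data known.

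Counts were summed per mouse and cell set, filtered with filterByExpr, scaled by TMM, and tested with the quasi-likelihood test of edgeR 4.0.16 (R 4.3.3), with Benjamini-Hochberg adjustment over all genes. DESeq2 1.42.0 was an alternative. Cells were handled in Python 3.11.15 with scipy 1.17.1 and scanpy 1.11.5. The 74, 79, and 97 cells with the highest doublet scores (Scrublet in scanpy) were marked and removed only in an alternative. Between libraries 5, 2, and 5 barcodes were shared. Replicate sums differed by more than counting noise (chi-square per degree of freedom 1.71 to 4.35). Both sums of a mouse come from the same animal, so the mouse was also tried as a block. Their deviations correlated at -0.14, -0.038, and 0.062 for mice 2, 3, and 4 with all members, and at 0.058, 0.035, and 0.15 without airway cells. The scripts were tested on simulated data.

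Named were the genes of the gate, the markers, members of the lists, and, of the called genes with the same direction in every mouse and at least 50 CPM in the higher type, the 15 with the largest fold in each direction, without mitochondrial, ribosomal, and hemoglobin genes. Some genes that meet this rule are not reported here. Alternatives changed the gate threshold, the cell filter, scaling, tool, depth, and the mice used. Gene positions are from GENCODE M21 (GRCm38) and promoter windows from RefSeq.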

Additional observations from a re-analysis of the deposited data

How the results depend on the processing

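The precision was limited by 98 AT1-like cells, of which 19 came from mouse 3, and by 3 mice in 1 condition. The share of gated cells, 1.52% with and 1.28% without the airway cells, ranged from 1.12% (at least 10 UMIs of the 3 genes) to 1.78% (at least 3 UMIs) and was 1.37% without any filter on cells, and from 1.24% to 1.87% with 1 mouse left out. With each cell thinned to 2000 UMIs, 4484 genes could be tested, and 705 were higher and 794 lower. Without airway cells and without TMM factors 3353 were higher. With 1 mouse left out the counts were 1467 to 2138 higher and 1349 to 1842 lower, or 1631 to 2055 and 1854 to 2471 without airway cells. DESeq2 called 1873 higher and 1739 lower. With the mouse as a replicate block 1832 were higher and 1700 lower, or 2103 and 2452 without airway cells. Among the genes named with a test this block changed the calls of *Chil1* (-2.62) and, without airway cells, *Cdkn1a* (0.86), and no other. The log2 fold changes of *Aqp5*, *Rtkn2*, and *Akap5* in cells gated on *Hopx* and *Ager* were 1.61, 3.23, and 2.55 with the block, and 1.5 to 1.88, 3.12 to 3.28, and 2.45 to 2.69 with 1 mouse left out.

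For the 102 named genes without airway cells, 709 of 714 alternative log2 fold changes left sign and call as reported, and the other 5 were of *Yap1*, as given above, and *Cdkn1a*. *Cdkn1a* rested on mouse 3, at -0.28 without it, and was called without mouse 4 (1.49, edgeR adjusted p = 0.0358) and with the block. For these genes thinning, removal of doublets, no filter on low counts, the other thresholds of the gate, the mitochondrial limit, and the other choice of AT2 cells were run with airway cells only.

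With all gated cells, airway cells included, 1389 of 1414 alternative values left the sign and call of that fit. In that fit the sign turned for *Jag1*, which ranged from -0.34 to 0.015 with 1 mouse left out (-0.34 without mouse 2, 0.015 without mouse 3, and 0.0037 without mouse 4), and was 0.023 when AT2 cells with 5 or more UMIs of the 3 genes were left out, and 0.73 with the *Hopx* and *Ager* gate. It also turned for *Scd2* with that gate (-0.11). Neither gene was called in that fit. Its calls were lost for *Col4a1* with that gate (0.40), *Cldn3* without mouse 4 (-0.89), *Tgfb3* after thinning (-1.13, edgeR adjusted p = 0.22), *Mki67* with those AT2 cells left out (-1.89, edgeR adjusted p = 0.0504), and *Cdkn1a* in 4 alternatives. Calls were gained for *Notch1* (-0.47 without a filter on low counts, -0.84 with at most 10% mitochondrial UMIs, -0.87 with at least 10 UMIs of the 3 genes, and -0.38 with the *Hopx* and *Ager* gate), *Scd2* (0.43 with at most 10% mitochondrial UMIs and 0.35 after thinning), *Top2a* (-1.14 without a filter on low counts), and *Chil1* in 5 alternatives (-1.76 to -4.29). The cause was not tested.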
